A study of Papio hamadryas with 160 samples.

Results

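Occipital cortex (OC) was compared with posterior parietal cortex (PPC) of the same baboons. The members were the 5 OC libraries of animals B1 to B5 and the 5 PPC libraries of the same animals, taken by region and animal number from the table of normalized values, so 10 of the 76 libraries of the series. The animals were *Papio hamadryas* of Group B, enrolled as controls in a pregnancy study and bled out under general anesthesia after ketamine and isoflurane; the group held 5 males and 1 female, adult animals of which the males were older, and sex is not matched to animal numbers in the labels used here. The OC block came from the calcarine sulcus (primary visual cortex) near the occipital pole and the PPC block from the dorsal bank of the parietal sulcus, both dissected fresh and flash frozen. A block of cortex holds neurons, glia, vessels and blood, so in these bulk samples fewer cells of a type and less miRNA per cell cannot be told apart. B6 gave no OC library that the authors kept, and its PPC library was not used.

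Each library is small RNA sequencing of 1 block, given for 362 miRNAs in RPM. These are read counts scaled to a common total per library, which the paper describes as mapped miRNA reads. Reads were matched without mismatch to human miRNAs, so names are those of the human entries (hsa-), written here without the prefix. RPM steps gave back the reads that each library was scaled to: 1680367 to 2612725 in OC (median 1955229) and 1743636 to 2779630 in PPC (median 2269842). Where a miRNA has 0 reads, its level may still reach that of 3 reads (1.15 to 1.79 RPM in OC, 1.08 to 1.72 RPM in PPC; counting error only). The 362 miRNAs held 62.2 to 62.9% of these reads in OC and 63.6 to 64.9% in PPC, ranges that do not overlap. What the remaining reads are is not stated in the sources used here. The labels give the OC and the entorhinal cortex (EC) library of B2 the same index, so the main limma fits were also run without B2. The other scalings, the counts of values without overlap, the arms and the counts over cortical regions were not. The Spearman correlation between the OC and EC libraries of B2 was 0.953. Between those of B1, B3, B4 and B5 it was 0.946 to 0.957. The neural miRNAs miR-9-5p and miR-124-3p were high in all 10 libraries, at 35809 and 7979.6 RPM on average in OC and 29955 and 6246 RPM in PPC.

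A miRNA is a short RNA that guides Argonaute to messenger RNAs with a matching site and lowers their translation and stability. Its hairpin precursor gives a 5p and a 3p arm, of which one is usually kept in larger amount, and neighbouring hairpins are often cut from a single transcript. Primary visual cortex is the first cortical station of vision, with a broad granular layer that takes input from the thalamus, whereas posterior parietal cortex is association cortex that joins vision, touch and movement.

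The comparison asks which miRNAs differ between 2 cortical areas within an animal. In OC 26 miRNAs were higher and 111 lower than in PPC among the 362 tested (limma on log2(RPM + 1) with the animal as a block, adjusted p under 0.05), so 37.8% passed the threshold, 7.18% as higher and 30.7% as lower, and 168 had an unadjusted p under 0.05. The differences were modest: 3 of the higher and 13 of the lower miRNAs changed by 2-fold or more on this scale. Of the higher miRNAs 23, and of the lower ones 103, had the same direction in all 5 animals. All 5 OC values lay above all 5 PPC values for 12 miRNAs (3.31%) and below them for 47 (13%). Without B2 the counts were 24 higher and 84 lower.

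The split between higher and lower depended on the scaling. The median log2 difference of all 362 miRNAs was −0.18, so a typical miRNA was slightly lower in OC on the RPM scale. After median of ratios scaling, which centres the miRNAs (median −0.01), 48 were higher (13.3%) and 59 lower (16.3%). The split was 43 and 47 under quantile normalization (11.9% and 13%), and on the recovered reads 62 and 66 with edgeR (17.1% and 18.2%) and 53 and 47 with DESeq2 (14.6% and 13%). Under all 5 scalings 25 of the 26 higher miRNAs and 36 of the 111 lower ones passed with the same direction, and 1 of the 137 changed sign under a scaling. Of the 24 miRNAs with the largest differences, described next, 23 are among those 25 and 36; miR-541-5p, which DESeq2 did not call, is the exception. All 24 also passed without any single animal. They were picked among miRNAs alike in direction in all 5 animals, so that trait of theirs is not a separate result. Of the other calls described, those of miR-128-1-5p, miR-129-5p, miR-130b-3p, miR-153-5p, miR-181c-3p, miR-192-5p, miR-34a-5p and miR-708-3p as higher, and of let-7c-5p, miR-92a-3p, miR-99a-5p, miR-127-3p, miR-181b-5p, miR-219a-2-3p, miR-338-3p, miR-424-5p and miR-541-3p as lower, were lost when at least 1 animal was left out.

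**Figure D1:**
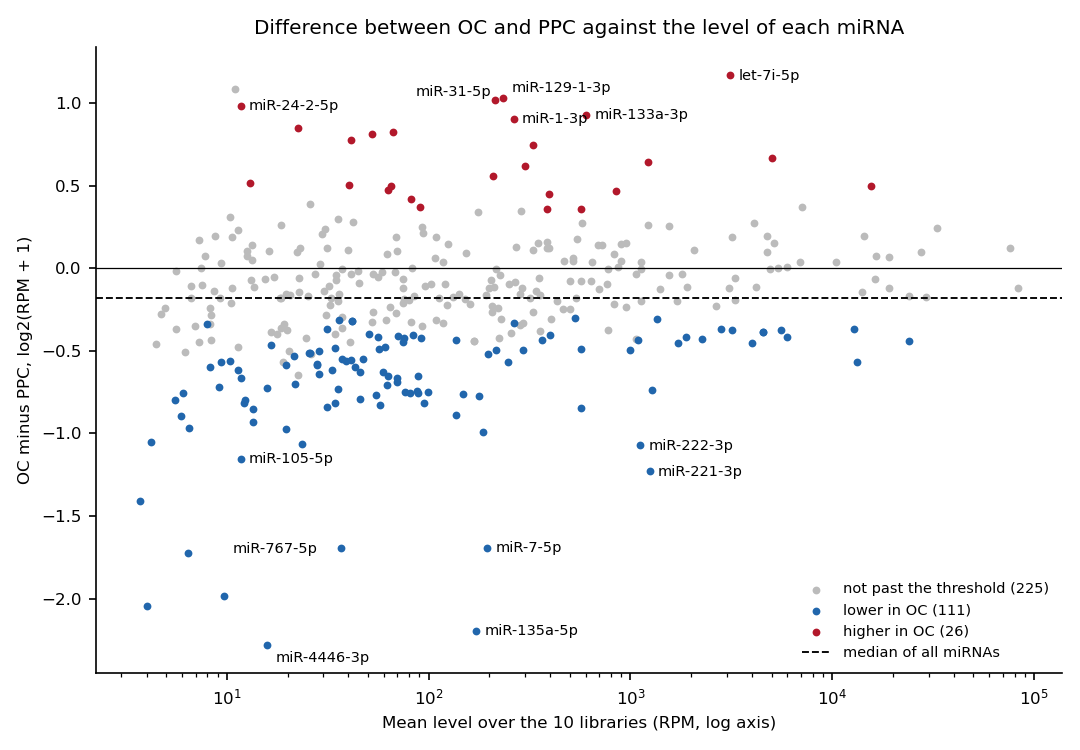
Each point is a miRNA, with its mean RPM over the 10 libraries on a log axis and its log2(RPM + 1) difference, OC minus PPC, on the vertical axis. The 111 lower miRNAs (blue) outnumber the 26 higher ones (red), the dashed line marks the median of −0.18, and miR-4446-3p and miR-135a-5p lie lowest.

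Let-7i-5p had the largest increase, and it was an abundant miRNA. It belongs to the let-7 family, which holds back growth and stem cell genes such as LIN28 and HMGA2 in maturing tissue. In animals B1 to B5 it stood at 4038, 3845, 4675, 4032 and 5029 RPM in OC, against 1677, 2360.5, 1809, 1835 and 1961 RPM in PPC. Every OC value lay above every PPC value, with a log2 difference of 1.17 (SE 0.12, adjusted p = 0.000815), and the ratio of the means was 2.24. The 3p arm of the same hairpin, which is rare, was higher as well, with 32.6, 32.2, 22.04, 32.1 and 26.2 RPM in OC and 12.9, 19.1, 13.8, 19.8 and 13.3 RPM in PPC (0.85 on the log2 scale, SE 0.12, adjusted p = 0.00188). Its OC values also lay above all PPC values. No other member of the let-7 family was called higher on the RPM scale. With edgeR 5 and with DESeq2 4 of the 9 were higher, where 17.1% and 14.6% of all 362 were. Let-7a-5p, the most abundant, averaged 19596 RPM in OC and 18543 RPM in PPC, and let-7f-5p 17019.6 and 15996 RPM.

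MiR-1-3p and miR-133a-3p, which are made from shared transcripts and are best known from heart and skeletal muscle, were both higher in OC. MiR-133a-3p stood at 709, 733, 832, 801 and 867 RPM in OC, against 349, 432, 407, 419 and 469 RPM in PPC, without overlap (0.93, SE 0.09, adjusted p = 0.000815). MiR-1-3p stood at 407, 299, 462, 73.1 and 507 RPM in OC and 192, 227, 227, 45.8 and 196 RPM in PPC (0.91, SE 0.15, adjusted p = 0.00304). Animal B4 was low in miR-1-3p in both regions, so the groups overlap although OC was higher in each of the 5 animals. The other muscle miRNAs did not follow: miR-499a-5p, from an intron of the myosin gene MYH7B, was lower (40.4 and 69.8 RPM, −0.77, adjusted p = 0.00247), and miR-208b-3p, from MYH7, was at 4.37 RPM in OC and 5.51 RPM in PPC and did not pass.

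Of the miRNAs tied to neurons, some were higher in OC and others, such as miR-137, lower. MiR-129-1-3p, from one of a pair of brain-rich miR-129 hairpins, stood at 388, 427, 354, 242 and 182 RPM in OC and 161, 175, 176, 121 and 119 RPM in PPC. The groups did not overlap, and it differed by 1.03 (SE 0.12, adjusted p = 0.00111). MiR-129-5p, the shared arm that lowers a potassium channel in rodent neurons, was also higher, at 985 RPM in OC and 714 RPM in PPC (0.46, adjusted p = 0.0174), while miR-129-2-3p, from the sister hairpin, averaged 347 RPM in OC and 309.9 RPM in PPC and did not pass. MiR-128-2-5p, from the hairpin in an intron of the neuronal gene ARPP21, had 51.8, 57.8, 69.8, 56.6 and 99.98 RPM in OC and 27.5, 38.8, 45.3, 34.4 and 40.6 RPM in PPC (0.81, adjusted p = 0.00247). The mature miR-128-3p, a neuronal miRNA that dampens excitability in mice, averaged 18199 ± 4133 RPM in OC and 12739.7 ± 1587 RPM in PPC (SD, n = 5 each), with a log2 difference of 0.49 (SE 0.10, adjusted p = 0.00667). MiR-490-3p, from an intron of the muscarinic receptor gene CHRM2, was at 73.6, 65.98, 99.2, 113 and 72.6 RPM in OC and 31.8, 40.8, 48.8, 48.02 and 70.5 RPM in PPC (0.83, SE 0.18, adjusted p = 0.00974). In B5 its values were almost equal, and the groups overlap.

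MiR-181c-5p was the second of the abundant miRNAs with a large increase. Its family shares a seed with miR-181a-5p, the most abundant miRNA of both regions. MiR-181c-5p stood at 6424, 5608, 6666, 5973 and 6240.3 RPM in OC and 3423, 3675, 4209.6, 3933 and 4285 RPM in PPC, without overlap (0.67, SE 0.10, adjusted p = 0.00198). MiR-181d-5p, its neighbour on the same transcript, was higher too (458 RPM in OC and 335 RPM in PPC, 0.45, adjusted p = 0.0113), and so was the 3p arm miR-181c-3p (0.36, adjusted p = 0.0155). Of the paralogs, miR-181a-5p averaged 79925 RPM in OC and 86750.0 RPM in PPC and did not pass, and its difference changed sign under median of ratios, edgeR and DESeq2. MiR-181b-5p was lower at 5098 and 6780.4 RPM (−0.42, adjusted p = 0.0345), a call that was lost without B1, B2, B3 or B4 and under each of these 3 scalings. Whether any reads that fit several miR-181 members were split between them by the authors' counting was not tested.

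The remaining named increases were of lower or more variable miRNAs. MiR-31-5p had 224, 239, 286, 344 and 344 RPM in OC and 133, 127, 138, 143 and 157 RPM in PPC, again without overlap (1.02, SE 0.11, adjusted p = 0.000815). MiR-24-2-5p, the rare arm of a hairpin in the miR-23a/27a/24-2 cluster, was at 17.2, 13.3, 17.8, 16.5 and 14.3 RPM in OC and 8.16, 8.06, 9.75, 6.17 and 5.76 RPM in PPC (0.98, adjusted p = 0.00111). From the same cluster miR-23a-3p was higher (0.56, adjusted p = 0.015), and miR-27a-3p was at 581 and 508 RPM and did not pass. MiR-194-5p and miR-192-5p, which share a transcript and are known from gut and kidney epithelium, differed by 0.78 and 0.36 (adjusted p = 0.00362 and 0.039). MiR-10b-5p, which lies in the HOXD gene cluster, varied most between animals, with 252, 349, 859, 459 and 183 RPM in OC and 211, 217, 452, 196 and 116 RPM in PPC, yet was higher in OC in every animal (0.75, adjusted p = 0.0065).

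Of the 26 higher miRNAs, 12 are not yet among those with the largest change or in a list's most abundant pair, and were chosen to be named after their values were seen. Beside miR-129-5p, miR-181c-3p, miR-181d-5p, miR-192-5p and miR-23a-3p they are miR-153-3p and miR-153-5p, arms made in introns of the secretory vesicle genes PTPRN and PTPRN2 (0.64 and 0.52), miR-130b-3p and miR-301b-3p, neighbours with a shared seed (0.47 and 0.50), miR-128-1-5p (0.37), the p53-induced miR-34a-5p (0.62) and miR-708-3p (0.42). Of the 26, 20 come from 9 sets of sister hairpins or neighbours with 2 or more calls each, so they are not independent of each other. MiR-182-5p, a sensory miRNA, had a log2 difference of 1.09 but did not pass (adjusted p = 0.0925): its OC values were 42.9, 8.18, 5.25, 15.3 and 10.1 RPM, of which B1 stood apart, against 3.44, 6.04, 6.31, 8.37 and 3.96 RPM in PPC. It passed under quantile normalization, edgeR and DESeq2 (adjusted p = 0.0346, 0.011 and 0.0154).

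**Figure D2:**
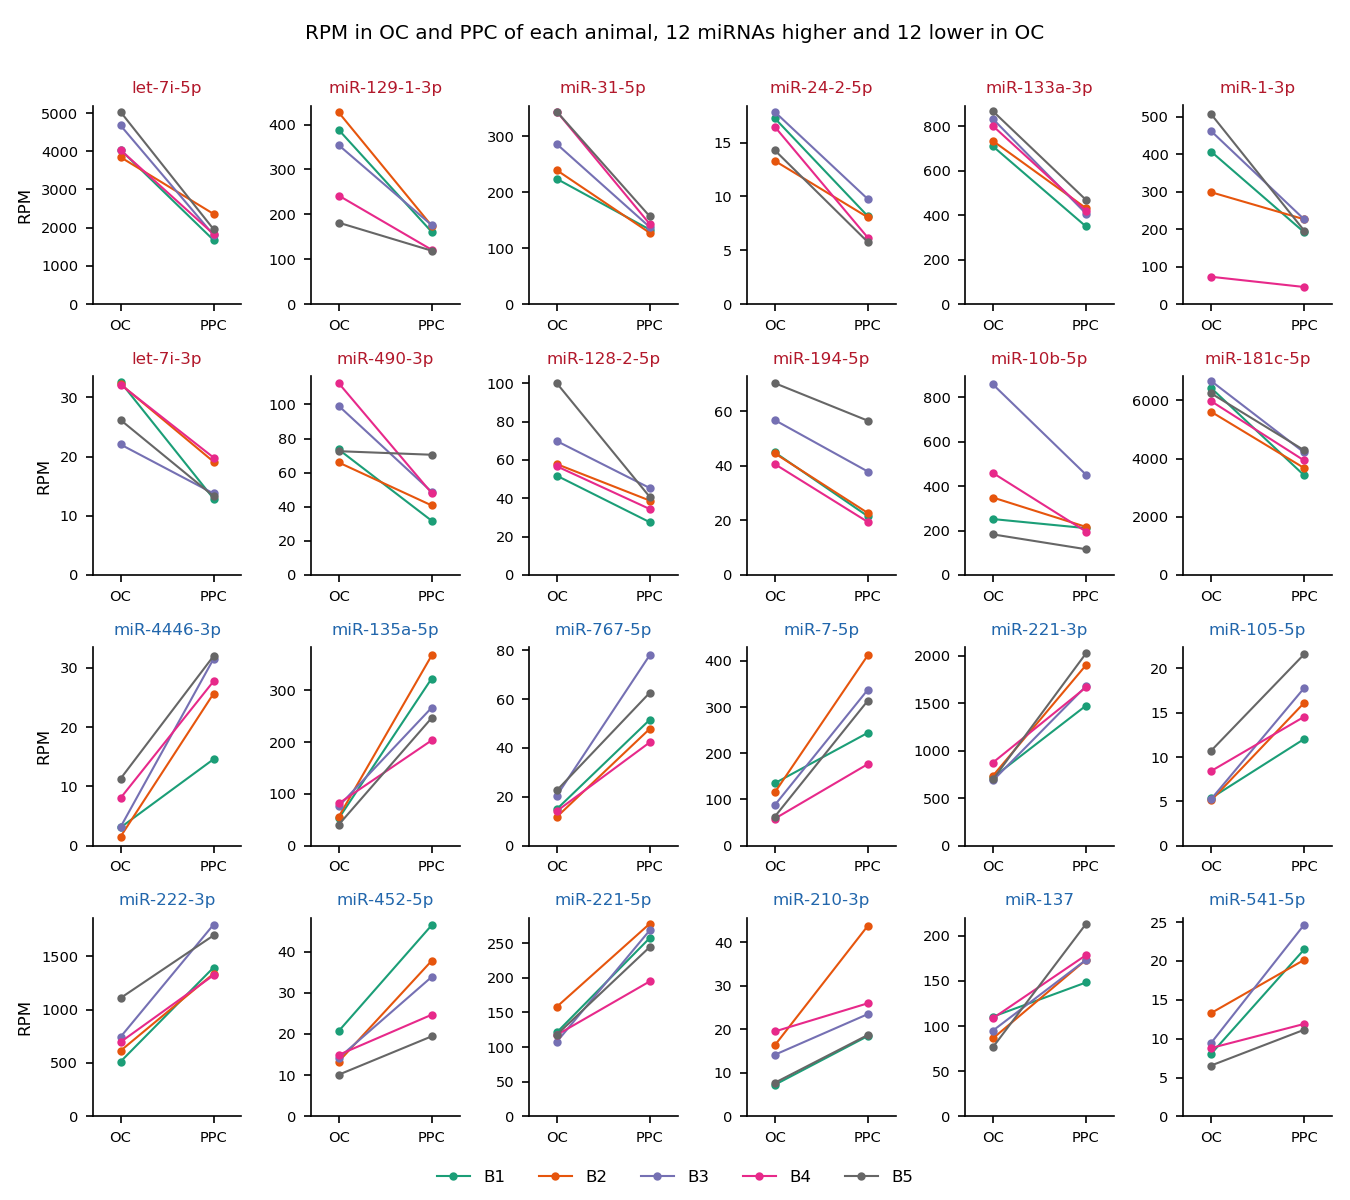
RPM of the 12 miRNAs with the largest increase (red titles) and the 12 with the largest decrease (blue titles), OC at the left and PPC at the right of each panel, with a line for each of the animals B1 to B5. All lines slope the same way within a panel; let-7i-5p lies at 3845 to 5029 RPM in OC against 1677 to 2360 RPM in PPC, and miR-135a-5p at 40.5 to 81.5 RPM against 203.5 to 368 RPM.

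The largest decreases exceeded the largest increases in size. MiR-135a-5p, which in mice targets the serotonin transporter and a serotonin receptor, stood at 52.5, 55.8, 76.1, 81.5 and 40.5 RPM in OC, against 323, 368, 267, 204 and 247 RPM in PPC. Its OC mean was 21.8% of that in PPC, the groups lay far apart, and it differed by −2.20 (SE 0.22, adjusted p = 0.000815). MiR-1251-5p, a neighbour of one of its hairpins that was named after its value was seen, was lower too, with 0, 4, 1, 4 and 2 reads in OC of B1 to B5 and 15, 14, 10, 15 and 25 reads in PPC (−2.04, adjusted p = 0.000815); at this depth the OC values lie near the floor of 3 reads. MiR-7-5p, rich in neuroendocrine cells and bound by the circular RNA CDR1as in mouse brain, had 135, 116, 88.2, 58.6 and 63.1 RPM in OC and 244, 412, 338, 177 and 314 RPM in PPC (−1.69, SE 0.19, adjusted p = 0.00111). MiR-1179, which lies beside one of its hairpins, had 17 reads in the 5 OC libraries and 66 in the PPC libraries (−1.41, adjusted p = 0.00111), whereas miR-7-1-3p, from another miR-7 hairpin, was at 33.2 RPM in OC and 27.8 RPM in PPC and did not pass.

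The 3 measured products of the miR-221 and miR-222 cluster, an X-linked pair of hairpins known for lowering the cell cycle inhibitor CDKN1B, were all lower. MiR-221-3p stood at 719, 737, 687, 876 and 699 RPM in OC and 1475, 1901, 1679.8, 1667 and 2025 RPM in PPC (−1.23, SE 0.12, adjusted p = 0.000815). MiR-222-3p stood at 512, 614, 744, 696 and 1108 RPM in OC and 1393, 1335, 1795, 1321 and 1693 RPM in PPC (−1.07, SE 0.13, adjusted p = 0.00111). MiR-221-5p averaged 124 ± 19.5 RPM in OC and 249 ± 32.6 RPM in PPC (SD, n = 5 each; −0.99, adjusted p = 0.00111). None of the 3 overlapped between the regions, and all 3 passed under all 5 scalings and without any single animal.

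Other decreases came from hairpins inside receptor genes on the X chromosome. MiR-767-5p and miR-105-5p lie in the gene of the GABA-A receptor subunit GABRA3. MiR-767-5p had 14.9, 11.8, 20.5, 14.2 and 22.6 RPM in OC and 51.5, 47.8, 78.00, 42.3 and 62.6 RPM in PPC (−1.70, SE 0.11, adjusted p = 0.000173), the smallest adjusted p of the 24 miRNAs with the largest changes. MiR-105-5p had 5.37, 5.11, 5.25, 8.42 and 10.7 RPM in OC and 12.03, 16.1, 17.8, 14.5 and 21.6 RPM in PPC (−1.16, adjusted p = 0.00111). MiR-452-5p, from the gene of another GABA-A subunit, GABRE, had 20.7, 13.3, 14.2, 14.9 and 10.1 RPM in OC and 46.4, 37.8, 33.8, 24.7 and 19.4 RPM in PPC (−1.07, adjusted p = 0.00111); its highest OC value exceeds its lowest PPC value, while each animal was lower in OC. Both arms of miR-1298, from the serotonin receptor gene HTR2C, were lower in OC, with 36 and 28 reads for the 3p and the 5p arm over the 5 OC libraries and 179 and 112 reads over the PPC libraries (−1.99 and −1.72, adjusted p = 0.00214 and 0.0014).

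MiR-4446-3p, for which no role is given here, had the most negative difference: 3.07, 1.53, 3.15, 8.04 and 11.3 RPM in OC and 14.6, 25.7, 31.5, 27.8 and 32.02 RPM in PPC (−2.28, SE 0.29, adjusted p = 0.00112). It rests on 57 reads in the OC libraries and 292 in the PPC libraries. MiR-210-3p, induced by hypoxia, had 7.28, 16.4, 14.2, 19.5 and 7.74 RPM in OC and 18.5, 43.8, 23.5, 25.99 and 18.7 RPM in PPC (−0.97, adjusted p = 0.00294), with lower OC in each animal and overlapping groups. MiR-137, a neuronal miRNA whose locus is associated with schizophrenia in humans, had 110.4, 86.4, 95.00, 109 and 76.8 RPM in OC and 148, 173, 173, 178 and 213 RPM in PPC, without overlap (−0.89, SE 0.15, adjusted p = 0.00331). MiR-541-5p, of the imprinted cluster described below, averaged 9.23 ± 2.52 RPM in OC and 17.9 ± 6.02 RPM in PPC (SD, n = 5 each; −0.85, adjusted p = 0.00629).

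The 5 most abundant miRNAs of the 10 libraries did not pass in limma, though miR-9-5p was called higher by edgeR and DESeq2 (adjusted p = 0.0173 and 0.00381) and in limma without B5 (adjusted p = 0.0266). Beside miR-181a-5p and miR-9-5p, miR-26a-5p averaged 78837 ± 7316 RPM in OC and 72390.1 ± 4759 RPM in PPC, miR-27b-3p 27266 ± 1454 and 30791 ± 2924 RPM, and miR-125a-5p 28398 ± 4006 and 26401 ± 2706 RPM (SD, n = 5 each). The 95% intervals of their log2 differences were −0.11 to 0.35, −0.38 to 0.03 and −0.13 to 0.32, so a change of 2-fold lies outside them. The 63 miRNAs of 1000 RPM or more had a median log2 difference of −0.12 and the 159 between 10 and 100 RPM one of −0.31.

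Among 16 miRNAs of neurons 4 were higher and 3 lower (7.18% and 30.7% of all 362 were), with a median of 0.04 against −0.18 for all 362. With edgeR and with DESeq2, 7 were higher and 3 lower, where 17.1% and 14.6% of all miRNAs were higher, and without B5 limma called 6 higher and 4 lower. Beside miR-128-3p, miR-129-5p, miR-129-1-3p and miR-153-3p as higher and miR-137 as lower, miR-138-5p, which limits spine size in rat neurons, was lower at 962 RPM in OC and 1606 RPM in PPC (−0.74, adjusted p = 0.00111). MiR-218-5p, from introns of SLIT2 and SLIT3, was lower at 401 RPM in OC and 733 RPM in PPC (−0.85, adjusted p = 0.00331). The most abundant of the list, miR-9-5p, had values of 36274, 40412, 33376, 42434 and 26551 RPM in OC and 28936, 26834, 28124, 32647 and 33234 RPM in PPC and did not pass (adjusted p = 0.199). Of the 4 products of miR-132 and miR-212, which neuronal activity induces through CREB and light induces in mouse visual cortex, 0 passed in limma and 0 had an unadjusted p under 0.05. MiR-132-3p was at 607, 726, 722, 850.1 and 878 RPM in OC and 561, 697, 632, 862 and 686 RPM in PPC, and miR-132-5p averaged 117 and 101 RPM. Their median was 0.17, and 1 to 3 of the 4 were called higher under the 4 other scalings, where 11.9 to 17.1% of all 362 were.

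All 4 miRNAs of oligodendrocytes, the myelin-forming glia, were lower in OC, where 30.7% of all 362 were, with a median of −0.47 against −0.18. MiR-338-3p stood at 5697, 4989.7, 5239.6, 4239 and 4247 RPM in OC and 7403, 5946, 6152, 6254 and 5767 RPM in PPC (−0.37, SE 0.09, adjusted p = 0.0174), and miR-219a-2-3p at 951, 1016, 835, 788 and 998 RPM in OC and 1526, 1204, 958, 1362 and 1204 RPM in PPC (−0.44, adjusted p = 0.026). Each animal was lower in OC, although the values of miR-219a-2-3p overlap between groups. The summed level of the list was 6154 to 7815 RPM in OC and 8144 to 10414 RPM in PPC. Of these 4 calls 0 were left under median of ratios, 1 under quantile normalization and 2 with edgeR and with DESeq2, and 1 was left without B4.

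No marker of vessels or leukocytes passed, and their part in the other differences was not tested. Of 5 endothelial and mural miRNAs 0 passed in limma, edgeR or DESeq2, 1 had an unadjusted p under 0.05, and 1 was called lower without B4. MiR-143-3p of smooth muscle averaged 16016 ± 4536 RPM in OC and 16452 ± 2419.8 RPM in PPC, miR-126-5p of endothelium 5996 ± 1389.9 and 5886 ± 912 RPM (SD, n = 5 each), and the summed level ran over 19769.5 to 34029 RPM in OC and 21165 to 27302 RPM in PPC. Of 6 leukocyte and microglia miRNAs 0 passed with any of these tools and 0 had an unadjusted p under 0.05, with a summed level of 544 to 969 RPM in OC and 559 to 892 RPM in PPC; miR-142-5p averaged 272 RPM in OC and 298 RPM in PPC, and miR-146a-5p 189 and 209.8 RPM. Of 4 erythroid miRNAs 0 passed in limma and 0 had an unadjusted p under 0.05, with sums of 1466 to 1709 RPM in OC and 989.7 to 2118 RPM in PPC. MiR-486-5p was at 1319 RPM in OC and 1123 RPM in PPC and was called higher under each of the 4 other scalings, while miR-451a was at 245 and 325 RPM.

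Of 4 miRNAs of the choroid plexus, the tissue that makes cerebrospinal fluid, 3 were lower, where 30.7% of all 362 were. They were miR-211-5p, from an intron of the channel gene TRPM1, and both arms of the miR-1298 hairpin, with means of 6.43 and 9.66 RPM. MiR-211-5p stood at 138, 124, 150.1, 75.4 and 174 RPM in OC and 233, 234, 208, 150.2 and 297 RPM in PPC (−0.78, SE 0.11, adjusted p = 0.00154). MiR-204-5p, the main miRNA of that tissue, averaged 1129 ± 73.02 RPM in OC and 1122 ± 257 RPM in PPC (SD, n = 5 each) and did not pass, and the summed level of the list overlapped, with 1156 to 1398 RPM in OC and 1082 to 1737 RPM in PPC. The muscle list, with 2 higher and 1 lower of 4 (7.18% and 30.7% of all 362 were), is described above. Of the 2 neuroendocrine miRNAs miR-375, known from pancreatic islets and pituitary, was higher with 42.5, 41.9, 38.8, 47.5 and 67.2 RPM in OC and 38.2, 28.2, 27.5, 31.7 and 38.9 RPM in PPC (0.51, adjusted p = 0.0103), and miR-7-5p was lower.

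Of 54 miRNAs from the imprinted 14q32 cluster, a large group of hairpins read from the maternal chromosome and active in neurons, 24 were lower (44.4%, against 30.7% of all 362) and 0 higher, with a median of −0.35. Lower calls among the 54 were 14 under median of ratios, 12 under quantile normalization, 13 with edgeR and 8 with DESeq2. Among all 362 the shares lower were 16.3%, 13%, 18.2% and 13% in that order. Under these 4 scalings 1 to 3 of the 54 were higher, against 11.9 to 17.1% of all 362. The most abundant member, miR-127-3p, was lower at 11709, 10504, 10213, 12336 and 11228 RPM in OC and 12416, 13534, 13757, 15259.6 and 17678 RPM in PPC (−0.37, SE 0.11, adjusted p = 0.0294); the call was lost under the 4 other scalings. MiR-411-5p, the next, averaged 4459.5 ± 216 RPM in OC and 3732 ± 605 RPM in PPC (SD, n = 5 each) and did not pass. Of the 40 members with a mean under 100 RPM 21 were lower, and of the 14 at or over it 3, beside 75 of 194 and 36 of 168 among all miRNAs of these levels. Beside miR-541-5p, those with the largest decreases were miR-541-3p, miR-485-3p, miR-323a-3p and miR-758-3p (−1.05, −0.84, −0.83 and −0.82), named after their values were seen. MiR-323a-3p had 37.95, 36.8, 38.3, 45.9 and 46.4 RPM in OC and 68.3, 78.5, 72.3, 69.6 and 79.2 RPM in PPC, without overlap.

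Other families held both members that passed in limma and members that did not. The share lower was 40% in the miR-99, miR-100 and miR-125 families and 33.3% in the miR-148 and miR-152 family. It was 16.7% in the miR-15/16 family and 11.1% in the let-7 family. Of all 362 miRNAs 30.7% were lower and 7.18% higher. In the let-7 family 1 of 9 was higher, let-7i-5p, and 1 lower, let-7c-5p (−0.37, adjusted p = 0.0278), a call that no other scaling gave; the median was 0.07. Of 5 members of the miR-99, miR-100 and miR-125 families 2 were lower, miR-100-5p and miR-99a-5p (−0.57 and −0.45, adjusted p = 0.00867 and 0.0174), while edgeR and DESeq2 called 2 lower and 1 higher, and miR-125b-5p averaged 22514 RPM in OC and 25305 RPM in PPC. Of 13 products of the miR-17 clusters, which promote cell division, 8 were lower and 0 higher (30.7% and 7.18% of all 362 were), with a median of −0.37 against −0.18. Quantile normalization called 1 higher and 3 lower, and 5 were lower without B2 or without B4. Among them were miR-20a-5p (−0.65) and miR-92a-3p (2444 RPM in OC and 3150.2 RPM in PPC, −0.37, adjusted p = 0.0351), while miR-25-3p did not pass; 4 of the 8 were left under median of ratios and 2 with DESeq2. Of 6 in the miR-15/16 family 1 was lower, miR-424-5p (−0.93, adjusted p = 0.0339; called by edgeR alone among the 4 other scalings, while median of ratios, edgeR and DESeq2 called 1 member higher), and miR-16-5p (4001 and 4377 RPM) and miR-195-5p (528 and 512 RPM) did not pass. Of 3 in the miR-148 and miR-152 family 1 was lower, miR-152-3p (−0.65, adjusted p = 0.00307), and miR-148a-3p (866 and 1269 RPM) and miR-148b-3p (561 and 579 RPM) did not pass.

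In 2 lists the calls were of the cluster partners named above. Of all 362 miRNAs 7.18% were higher and 30.7% lower in limma. Of 5 in the miR-130 and miR-301 family 2 were higher, miR-130b-3p and miR-301b-3p (1 without B1, B3, B4 or B5), whereas miR-301a-3p averaged 654 RPM in OC and 639 RPM in PPC and miR-130a-3p 295 and 364 RPM. Of 5 in the miR-23/27/24 clusters 1 was higher, miR-23a-3p (2 under median of ratios, edgeR and DESeq2), whereas its paralog miR-23b-3p averaged 1056 RPM in OC and 1210.2 RPM in PPC. In the miR-181 family 2 of 4 were higher and 1 lower, and in the miR-221 and miR-222 cluster 3 of 3 lower. No member of the miR-29 family (3) or the miR-30 family (5) passed in limma, and 1 and 0 had an unadjusted p under 0.05. With edgeR 2 and 3 of them were higher and with DESeq2 2 and 2, where 17.1% and 14.6% of all 362 were. MiR-29a-3p averaged 5399 RPM in OC and 4845 RPM in PPC, miR-29c-3p 1692 and 1413 RPM, miR-30a-5p 15317 and 13338 RPM and miR-30d-5p 10534 and 10289.5 RPM. MiR-29c-3p was higher in OC in all 5 animals without overlap, and it was called higher under each of the 4 other scalings.

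**Figure D3:**
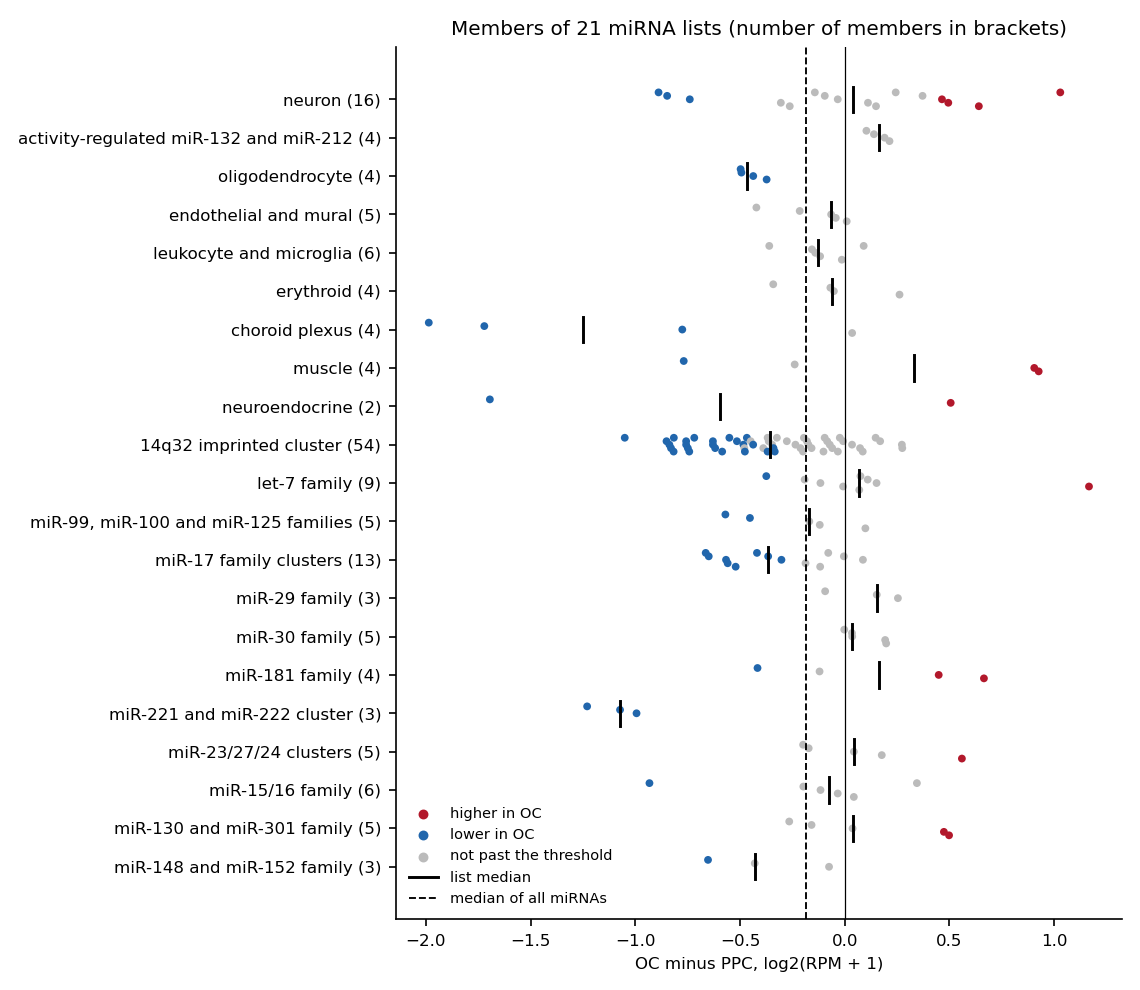
Log2(RPM + 1) difference, OC minus PPC, of the members of 21 lists, with members higher in OC in red, lower in blue and not past the threshold in grey. Thick bars mark list medians and the dashed line the median of all 362 miRNAs; the 3 products of the miR-221 and miR-222 cluster and the 4 of oligodendrocytes lie left of that line, and the list of neurons has calls on both sides.

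Both arms were measured for 91 hairpin names, called hairpins here and paired by name alone, which gives a second reading in the same libraries. A name can cover several hairpins, as for miR-153, and miR-199a-3p and miR-199b-3p had the same values (mean 167 RPM). An arm passed in 37 of them and both arms in 17, and in all 17 the arms had the same direction (3 higher, 14 lower). Of all 362 miRNAs 7.18% were higher and 30.7% lower, and how often arms would agree from this imbalance was not tested. The arms lay on the same side of the median of all miRNAs in 69 of the 91 and on opposite sides in 22. Across the 91 hairpins the log2 differences of the arms had a Pearson r of 0.78 and a Spearman rho of 0.68, given as a description, since the arms share libraries and depth. The arms differed most for miR-485, whose 3p arm was lower (22.7 RPM in OC and 40.2 RPM in PPC, −0.84) and whose 5p arm was at 133 and 118 RPM and did not pass, for miR-671, with the 5p arm lower (−0.97) and the 3p arm at 53.2 RPM in OC and 52.6 RPM in PPC, and for miR-369, with the 3p arm lower (−0.63) and the 5p arm at 58.3 and 58.95 RPM. Whether the arms of a hairpin differ from each other was not tested. Both arms of miR-22 were lower: miR-22-3p, at 20358 RPM in OC and 27707 RPM in PPC, had a log2 difference of −0.44 (adjusted p = 0.0103) and miR-22-5p one of −0.73 (adjusted p = 0.0065).

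**Figure D4:**
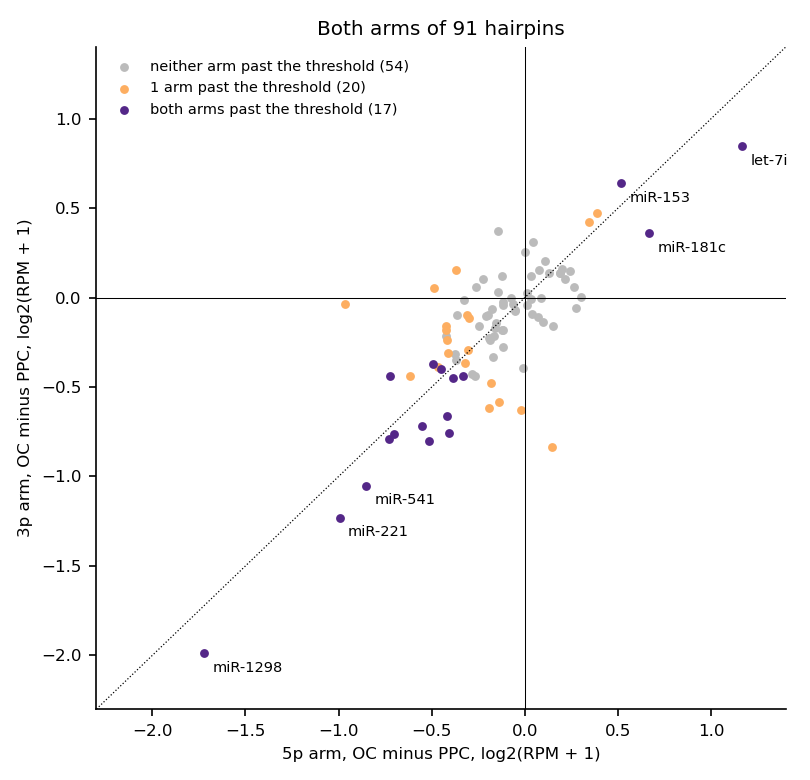
Log2(RPM + 1) difference, OC minus PPC, of the 5p arm (horizontal) and the 3p arm (vertical) of 91 hairpins, with the dotted line where both are equal. The 17 hairpins with both arms past the threshold (purple) lie in the lower left or upper right, with miR-1298 and let-7i at the ends.

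Other cortex of the same animals gives the scale of these differences. Against dorsolateral prefrontal cortex (dlPFC), 174 miRNAs passed in OC (30 higher and 144 lower, 48.1%) and 20 in PPC (3 higher and 17 lower, 5.52%), 2 comparisons that share the dlPFC libraries and whose difference was not tested. The count for PPC was 0, 54, 2, 2 and 3 without B1, B2, B3, B4 and B5, with 65 at an unadjusted p under 0.05 in limma without B1. Within an animal the Spearman correlation of OC was 0.973 to 0.984 with PPC, 0.969 to 0.979 with motor cortex (MC), 0.960 to 0.974 with dlPFC, 0.954 to 0.968 with hippocampus (HC) and 0.884 to 0.892 with cerebellum (CB). Between animals it was 0.971 to 0.990 for OC with OC.

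Over the 19 libraries of PPC, MC, dlPFC and EC of these animals, all 5 OC values lay above every other cortical value for 7 miRNAs (1.93%) and below it for 26 (7.18%). The 7 were let-7i-5p, let-7i-3p, miR-129-1-3p, miR-133a-3p, miR-181c-5p, miR-24-2-5p and miR-31-5p. Among the 26 were miR-135a-5p, miR-7-5p, miR-137, miR-138-5p, miR-218-5p, miR-22-3p, miR-4446-3p and the members of the miR-221 with miR-222, miR-105 with miR-767 and miR-1298 groups. OC had the lowest mean of the 5 cortical regions for all 12 of the most decreased miRNAs, and the highest for 11 of the 12 most increased; the exception was miR-10b-5p, at 420.3 RPM in OC and 458 RPM in MC. These counts include PPC and reuse the OC libraries by which the 12 and 12 were picked. They are not independent of the comparison above, also where they concern MC, dlPFC and EC.

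The order among the other regions differed between miRNAs. MiR-135a-5p averaged 61.3 RPM in OC, 282 in PPC, 293 in MC, 449 in dlPFC, 394 in EC, 135 in HC and 74.6 in CB, and the ranges of PPC (204 to 368 RPM) and MC (206 to 426 RPM) overlap. Means ascended in the order OC, PPC, MC, dlPFC and EC for 7 of the 12 most decreased miRNAs, among them miR-7-5p (92.1, 297, 405, 484 and 1164 RPM) and miR-767-5p (16.8, 56.5, 77.4, 138 and 212 RPM). For miR-767-5p the log2 difference was −2.95 (adjusted p = 8.8e-07) for OC against dlPFC and −1.25 (adjusted p = 0.00889) for PPC against dlPFC. Let-7i-5p had lower means in the other 4 cortical regions (1928 RPM in PPC, 1689 in MC, 1715 in dlPFC and 1532 in EC), with 1.34 (adjusted p = 0.000188) for OC against dlPFC and 0.17 (adjusted p = 0.602) for PPC against dlPFC, and was at 2564 RPM in HC and 2996 in CB. MiR-133a-3p followed another order, with 788 RPM in OC, 523 in MC, 415 in PPC, 237 in dlPFC and 164 in EC. It differed by 1.74 (adjusted p = 7.96e-05) for OC and 0.82 (adjusted p = 0.0379) for PPC against dlPFC. Without B1 neither miR-133a-3p nor miR-767-5p passed for PPC against dlPFC, as no miRNA did. Among the 5 cortical regions PPC had the lowest mean of miR-490-3p and the highest of miR-210-3p: miR-490-3p averaged 84.8 RPM in OC and 78.1 in dlPFC against 47.97 in PPC, and miR-210-3p 13.02 RPM in OC and 20.8 in dlPFC against 26.1 in PPC.

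**Figure D5:**
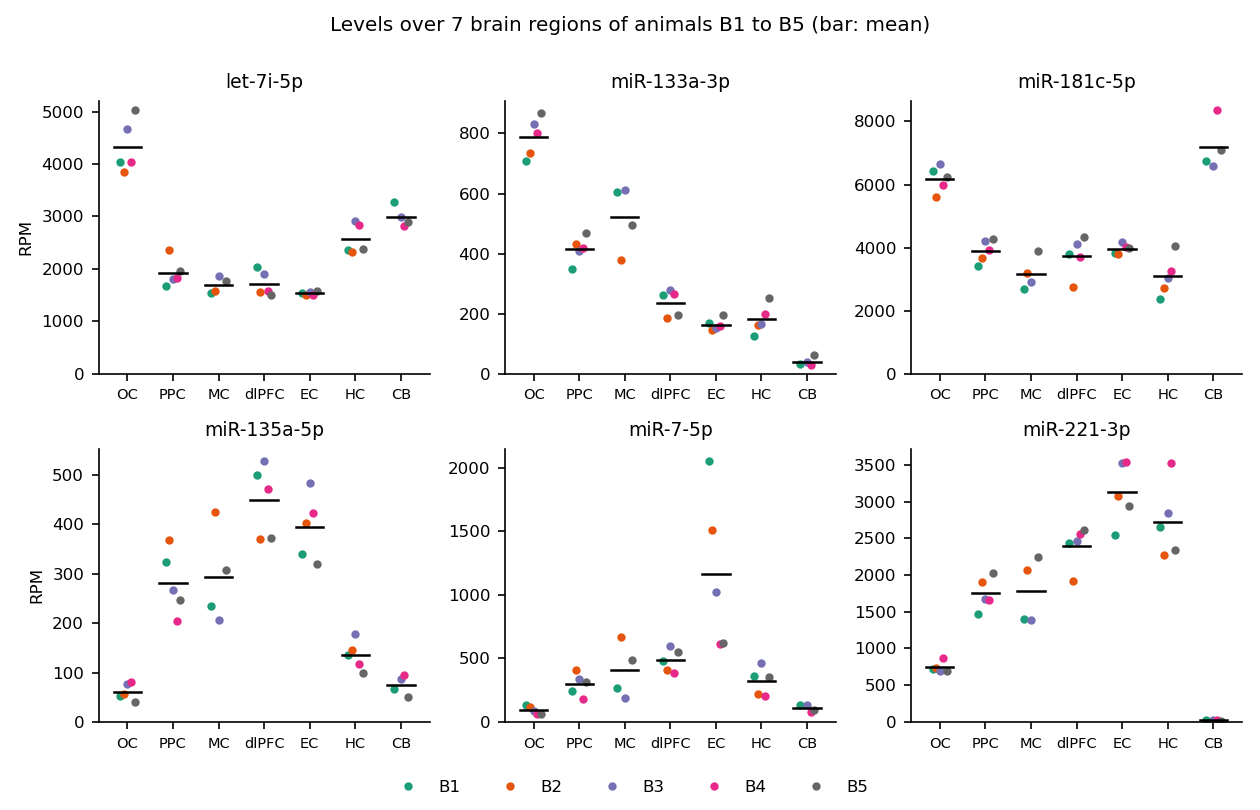
RPM of 6 miRNAs in OC, PPC, MC, dlPFC, EC, HC and CB of animals B1 to B5 (points, coloured by animal) with the mean as a bar; MC has no value for B4 and CB none for B2. The 5 OC values of let-7i-5p, miR-133a-3p and miR-181c-5p lie above, and those of miR-135a-5p, miR-7-5p and miR-221-3p below, every value of PPC, MC, dlPFC and EC.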

How the data were processed

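The deposited RPM values were made by the authors with bowtie in mirDeep2 (versions not given in the sources used here): trimmed reads were aligned to human miRBase v21 with 0 mismatches, libraries under 500000 mapped reads were left out, a miRNA needed 10 or more reads in 80% of the brain libraries, and sequencing runs of a library were combined. The deposited count of each miRNA, a total over libraries by the authors, was used to check the reads recovered from the RPM steps (100% of values up to 200 RPM whole within 0.1 reads). 3 columns with no values were not used.

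OC and PPC were compared with limma 3.58.1 on log2(RPM + 1) with no filter, blocking on the animal, at a Benjamini-Hochberg adjusted p of 0.05 over all 362; fold changes on this scale understate low miRNAs. An exact test of 5 pairs cannot go below p = 0.0625 and was not used. The labels name the animal, so the pairs are of the same animal; deviations of paired libraries correlated at r = 0.48, 0.42, 0.68, 0.71 and 0.42 (miRNAs above 50 RPM). Scalings were median of ratios, quantile normalization, edgeR 4.0.16 and DESeq2 1.42.0, the last 2 on recovered reads. The fits were tested on simulated data.

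The text names the 12 largest increases and 12 largest decreases among miRNAs past the threshold, alike in all 5 animals and of at least 10 RPM, the 5 most abundant, and the 2 most abundant of each of 21 lists; the rest were picked with their values in view. The comparison and the lists were chosen with earlier results of these data known. Alternatives were no replicate block, other pseudocounts (0.1 and 10 RPM), a mean of at least 10 RPM, a trended robust prior, the scalings, and each animal left out.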

Additional observations from a re-analysis of the deposited data

Results flagged for a closer look

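Among the 124 sets of 5 values (62 named miRNAs in each region), 7 held a value far from the other 4 by Dixon's criterion, where chance alone flags about 1 in 20. MiR-1-3p was low in PPC of B4, at 45.8 RPM against 192 to 227 RPM in the other animals. MiR-221-3p was high in OC of B4 (876 RPM against 687 to 737 RPM) and miR-221-5p in OC of B2 (158 RPM against 108 to 121 RPM), both still below every PPC value. MiR-143-3p was high in OC of B4 (23875 RPM against 12496 to 15686 RPM) and miR-451a low in OC of B5 (177 RPM against 249 to 277 RPM). In PPC of B2, miR-125a-5p was high (31164 RPM against 24582 to 25790 RPM) and miR-411-5p low (2694 RPM against 3881 to 4288 RPM).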

How the results depend on the processing

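The count of 137 miRNAs past the threshold was 90 under quantile normalization, while it stayed within 1.5 times under the other alternatives, with 99 without the replicate block and 98 to 129 with an animal left out. The split moved with the scaling from 26 higher and 111 lower to 48 and 59 (median of ratios), 43 and 47 (quantile normalization), 62 and 66 (edgeR) and 53 and 47 (DESeq2). For OC against dlPFC it moved from 30 and 144 to 72 and 69 under median of ratios. The 20 calls of PPC against dlPFC were 7 without the replicate block, 14 under median of ratios and 0 to 54 with an animal left out. Among small differences whose size is given, that of miR-27b-3p turned positive under median of ratios (0.00499), edgeR (8.599e-05) and DESeq2 (0.00491). The 70 miRNAs named in the text that passed kept their direction under each alternative run; 10, 11, 7 and 15 no longer passed under median of ratios, quantile normalization, edgeR and DESeq2, 11 without the replicate block, and 3 to 16 with an animal left out. Of the 39 named that did not pass, 9, 5, 17 and 13 passed under these scalings, and the differences of 11, 5, 11 and 11 changed sign; under median of ratios, edgeR and DESeq2 these were miR-16-5p, miR-25-3p, miR-27b-3p, miR-125b-5p, miR-142-5p, miR-143-3p, miR-146a-5p, miR-148b-3p, miR-181a-5p, miR-369-5p and miR-671-3p. With an animal left out, 1 to 4 changed sign. The causes were not tested. The median shift of −0.18 bounds what can be read from small decreases, and with 5 animals and 1680367 to 2779630 reads a library, miRNAs under 10 RPM rest on few reads.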

Other observations

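MiR-1-3p was low in B4 beyond the regions compared. Over OC, PPC, dlPFC, EC and HC the 5 libraries of B4 held 25.9 to 73.1 RPM, while the 24 libraries of the other animals from these regions and MC held 59.0 to 507 RPM. MiR-133a-3p, its cluster partner, was at 158 to 801 RPM in B4 and 127 to 867 RPM in the others.

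Further miRNAs were lower in OC and below every other cortical value, named after their values were seen. MiR-935 averaged 68.8 RPM in OC and 122 RPM in PPC (−0.82 on the log2 scale, adjusted p = 0.00111), and miR-592, from an intron of the glutamate receptor gene GRM8, averaged 22.2 RPM in OC and 35.2 RPM in PPC (−0.64, adjusted p = 0.00304). MiR-370-3p and miR-432-5p of the 14q32 cluster averaged 65.5 and 66.0 RPM in OC against 110.3 and 112 RPM in PPC. MiR-138-2-3p, the rare arm of a miR-138 hairpin, was lower like miR-138-5p, at 3.64 RPM in OC and 8.20 RPM in PPC (adjusted p = 0.0165), though it overlapped the other cortical values.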
